A study of Homo sapiens with 24 samples.

Results

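The 10 genes described here encode enzymes that make serine, glycine, proline, asparagine and the one-carbon units carried by folate: PHGDH, PSAT1, PSPH, SHMT2, MTHFD2, MTHFD1L, PYCR1, ALDH18A1, ASNS and PCK2. They were chosen by name, as the genes of these Ensembl identifiers in both count tables, and are 10 of the 57992 genes used in each table. All 10 passed the filter on low counts in both assays, which left 18287 genes tested in RNA, 19780 in ribosome footprints and 14853 in both. The cells were K562, an established human line from a myelogenous leukaemia, in which CRISPR interference was induced with doxycycline: a guide RNA brings a repressor to the promoter of the gene it matches. One guide, sgDDX3, matches DDX3X, whose product unwinds mRNA for translation initiation, and the other, sgGal4, serves as the control. Collection was at days 0, 3 and 14, and for every combination of guide, day and assay (12 groups) there were 2 libraries, 24 in all. Both guides share the line and the inducer, doxycycline at 50 ng/ml, which the labels give for every sample, day 0 included, without stating whether the day 0 cells had received it. The assays were sequencing of cytosolic RNA and of ribosome footprints, the mRNA pieces that ribosomes shield from RNase. The labels name no separate cultures for the replicates, so p-values reflect only how far libraries lie apart, which may be technical. That spread was estimated over all groups of a fit and moderated across genes. The p-values and SE therefore do not measure the spread of the compared libraries alone.

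Serine is made from the glycolytic intermediate 3-phosphoglycerate in successive steps by PHGDH, PSAT1 and PSPH. In mitochondria SHMT2 splits serine into glycine and a one-carbon unit on folate, and MTHFD2 and MTHFD1L oxidise that unit and release it as formate for purine and thymidylate synthesis in the cytosol. ALDH18A1 and PYCR1 turn glutamate into proline, ASNS makes asparagine from aspartate, and mitochondrial PCK2 makes phosphoenolpyruvate from oxaloacetate. Many of these genes are known targets of ATF4, a transcription factor whose own mRNA is translated more when eIF2 alpha is phosphorylated, and proliferating leukaemia cells draw on these pathways for protein and nucleotide synthesis.

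Library totals ranged from 10266600 to 43256600 counts in RNA (median 14520600) and from 6223960 to 15240500 in footprints (median 9483040). Values are given as CPM, a gene's counts for each 1e+06 counted in the library after scaling for composition. The marker values and sums below are CPM without this scaling. CPM are compared between samples of 1 gene, not between genes, since the tables hold no gene lengths. The DDX3X mRNA was at 214 and 203, 185 and 174 and 201 and 187 CPM with sgGal4 at days 0, 3 and 14. With sgDDX3 it was at 175 and 185, 38.9 and 33.7 and 134 and 101 CPM. The knockdown was therefore larger at day 3 (log2 difference -2.29 ± 0.11, SE, adjusted p = 1.6e-11) than at day 14 (-0.72 ± 0.10, adjusted p = 4.03e-05). The K562 markers GATA1 and TAL1 were detected in all libraries, HBG1 was near 0 (its reads can be shared with HBG2), and the 10 erythroid markers summed to 1752 to 1796 CPM in RNA at day 0 with either guide and to 1406 to 1577 CPM at days 3 and 14. Of the 9 erythroid markers tested, 4 were lower and none higher with sgDDX3 at day 3, and 2 were lower and 2 higher at day 14. Over all genes tested in RNA, 6.39% were lower and 7.68% higher at day 3, and 6.18% and 8.44% at day 14. The part of these markers in the results was not tested. Of 12 markers of T cells, B cells, epithelium and fibroblasts, MS4A1 and COL1A2 were at 0 in all 12 RNA libraries. The 12 together summed to 80.3 to 111 CPM in RNA, most of it KRT8 and EPCAM. That sum was lowest at day 0 with either guide (80.3 to 85.5 CPM) and highest with sgGal4 at day 14 (105 to 111 CPM), and its part in the results was not tested. In bulk libraries fewer cells of a kind and less RNA per cell cannot be told apart.

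The sgDDX3 libraries of day 14 differed from each other in the enzyme genes. Since the tests pool the spread over all groups, the p-values and SE of day 14 reflect this distance only in part. In RNA, replicate 1 was below replicate 2 for 8 of the 10 genes, with ASNS at 84.2 against 153 CPM and PHGDH at 141 against 199 CPM. In footprints, replicate 1 was below replicate 2 for 9 of the 10 genes. The library with the lower enzyme RNA was the one with the higher DDX3X RNA (134 against 101 CPM), and its part in the results was not tested. For each enzyme gene whose difference between the guides passed at day 14, that difference is given with all libraries and with each of these left out. Any fit with 1 library left out leaves 1 in its group, so that group's own spread does not enter the p-value. Passing in such a fit is therefore no measure of stability. Some counts from such fits stand without the count over all genes in the same fit. There a change in the enzyme genes and a change in all genes cannot be told apart.

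The promoters are shown as a description of the bases near the transcript starts, and no link between their motifs and the expression of these genes was tested. RefSeq windows of 300 bases on GRCh38.p14, from 250 before to 50 after a transcript start, were found for 7 of the 10 genes, with 4 windows for MTHFD1L and 2 for ASNS. PSPH, SHMT2 and PYCR1 had none. Letters of 3 motifs were searched on both strands: TGATGNAA, the composite element bound by ATF4 with C/EBP proteins, CCAAT, and the E-box CACGTG, and no 2 matches overlapped in the windows printed. Capitals mark the matches. ASNS is printed for its match to the composite element, MTHFD1L for matches to all 3 motifs and PSAT1 for its 3 CCAAT boxes. ALDH18A1 is printed as a gene that passed in no comparison of either assay. The ASNS window lies at chr7:97872359-97872658 on the minus strand and that of MTHFD1L at chr6:150866236-150866535 on the plus strand. Those of PSAT1 and ALDH18A1 lie at chr9:78296875-78297174 on the plus strand and chr10:95656662-95656961 on the minus strand. All are written 5′ to 3′ along the gene.
ASNS: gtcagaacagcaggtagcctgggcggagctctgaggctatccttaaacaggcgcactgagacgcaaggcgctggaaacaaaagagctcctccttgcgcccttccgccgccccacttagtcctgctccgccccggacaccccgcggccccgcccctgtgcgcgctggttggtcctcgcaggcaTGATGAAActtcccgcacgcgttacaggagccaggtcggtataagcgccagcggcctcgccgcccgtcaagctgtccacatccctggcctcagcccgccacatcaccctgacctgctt
MTHFD1L: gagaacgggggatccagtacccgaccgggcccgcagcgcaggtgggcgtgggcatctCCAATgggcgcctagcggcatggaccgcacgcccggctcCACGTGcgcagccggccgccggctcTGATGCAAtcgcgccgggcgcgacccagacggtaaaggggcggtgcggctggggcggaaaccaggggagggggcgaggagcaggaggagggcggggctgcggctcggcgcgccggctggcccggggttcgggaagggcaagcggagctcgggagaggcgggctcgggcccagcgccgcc
PSAT1: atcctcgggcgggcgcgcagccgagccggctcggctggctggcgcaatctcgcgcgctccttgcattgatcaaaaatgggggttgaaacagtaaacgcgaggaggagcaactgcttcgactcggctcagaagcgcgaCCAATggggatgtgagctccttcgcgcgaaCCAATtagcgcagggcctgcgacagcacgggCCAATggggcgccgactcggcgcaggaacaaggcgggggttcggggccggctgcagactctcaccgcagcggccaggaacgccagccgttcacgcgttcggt
ALDH18A1: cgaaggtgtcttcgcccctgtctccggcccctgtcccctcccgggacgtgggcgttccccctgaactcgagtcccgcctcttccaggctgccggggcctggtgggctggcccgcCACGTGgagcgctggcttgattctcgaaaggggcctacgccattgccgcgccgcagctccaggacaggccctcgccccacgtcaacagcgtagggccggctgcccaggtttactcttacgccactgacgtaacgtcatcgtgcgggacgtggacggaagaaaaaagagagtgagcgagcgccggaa

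The composite element was matched as TGATGAAA, 68 bases before the ASNS start, and as TGATGCAA, 129 bases before the start of the MTHFD1L window printed. The same MTHFD1L match stood 90 bases before and 25 bases after the starts of 2 other windows of this gene, and the remaining window of MTHFD1L and the other window of ASNS had none. It was matched in 2 of the 7 genes, and in 3.62% of all 35116 windows in the table and 4.46% of the 27305 genes they belong to. CCAAT was found in 5 of the 7 genes (MTHFD1L, MTHFD2, PCK2, PHGDH and PSAT1) and in 34.6% of all windows (39.7% of genes). In PSAT1 it stood 113, 83 and 52 bases before the start. The E-box was found in ALDH18A1, 136 bases before the start, and in MTHFD1L, 154 bases before the start of the window printed (115 bases and 1 base before the starts of 2 others), against 7.26% of windows and 8.77% of genes. A match is a description of the letters and not a site of binding, and the absence of one says only that these letters are not in the window.

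Most of the 10 mRNAs were lower with sgDDX3 than with sgGal4 at day 14, and fewer passed at day 3. At day 14, 8 of the 10 passed as lower and none as higher, against 6.18% of all genes tested that passed as lower and 8.44% as higher (edgeR, adjusted p under 0.05). The 2 that did not pass were MTHFD1L and ALDH18A1, the latter 0.19 ± 0.10 on the log2 scale, above 0. At day 3, 5 of the 10 passed as lower (PHGDH, SHMT2, MTHFD2, ASNS and PCK2) and none as higher, against 6.39% of all genes lower and 7.68% higher. At day 0 none passed, with 0 at an unadjusted p under 0.05 and 0 by DESeq2, where 0.00547% of all genes passed in either direction. The median log2 difference of the 10 genes was 0.12 at day 0, -0.27 at day 3 and -0.51 at day 14, beside 0.00, -0.01 and -0.01 over all genes tested. The control libraries moved too: with sgGal4 9 of the 10 mRNAs rose from day 0 to day 3, where 3.41% of all genes rose. By day 14, 8 of the 10 were above day 0, where 7.7% of all genes were. The guide differences of days 3 and 14 are taken from these control libraries. The plots of RNA and of footprints by library show each gene in turn.

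**Figure D1:**
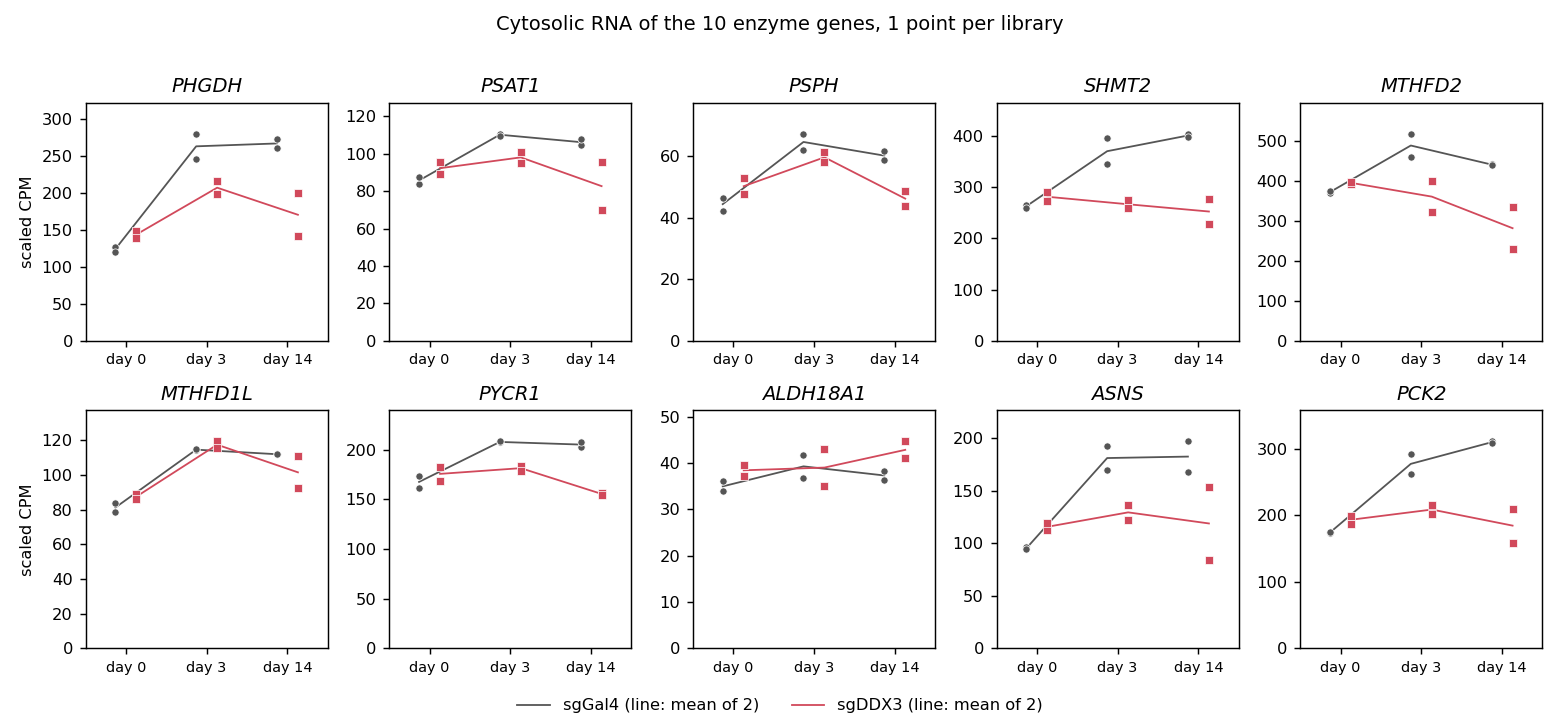
Cytosolic RNA of the 10 enzyme genes in scaled CPM (y axis, from 0) at days 0, 3 and 14 (x axis, not to scale), 1 point per library and lines through the mean of 2, grey for sgGal4 and red for sgDDX3. For 9 of the 10 genes the sgDDX3 points lie below the sgGal4 points at day 14 (25.6% of all genes tested). For ALDH18A1 they lie above (26.3% of all genes tested).

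PHGDH (ENSG00000092621.11, chr1:119711934-119744215, GRCh38, as for all positions here) catalyses the first step of serine synthesis. With sgGal4 its RNA was at 127 and 121 CPM at day 0, 279 and 246 at day 3 and 273 and 260.1 at day 14. In sgDDX3 libraries it was at 148 and 139, 216 and 198 and 141 and 199 CPM. Both sgDDX3 libraries lay above both sgGal4 libraries at day 0 and below them at days 3 and 14. PHGDH RNA rose with sgGal4 by a log2 change of 1.09 ± 0.11 (SE) by day 3 (adjusted p = 4.33e-06), a 2.12-fold rise, and with sgDDX3 by 0.53 ± 0.11 (adjusted p = 0.00122). It was lower with sgDDX3 by -0.35 ± 0.11 at day 3 (adjusted p = 0.0319) and by -0.65 ± 0.11 at day 14 (adjusted p = 0.000295), at day 14 a difference of -36.1%. The day 14 value was -0.42 without sgDDX3 replicate 1 of that day and -0.91 without replicate 2. Its footprints were at 192 and 174, 427 and 353 and 368 and 366 CPM with sgGal4 at days 0, 3 and 14. With sgDDX3 they were at 225 and 215, 366 and 298 and 206 and 319 CPM. The guides overlapped at day 3 in this assay and not at day 14. Footprints rose with sgGal4 by 1.09 ± 0.17 by day 3 (adjusted p = 0.00886) and with sgDDX3 by 0.59 ± 0.17 (adjusted p = 0.048), while the guide difference of -0.49 ± 0.17 at day 14 did not pass (adjusted p = 0.136). It was -0.21 without replicate 1 and -0.83 without replicate 2, where it passed (adjusted p = 0.0121).

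PSAT1 (ENSG00000135069.13, chr9:78297125-78330093), the aminotransferase of the next step, moved less. Its RNA was at 83.9 and 87.6, 111 and 109.8 and 105 and 108 CPM with sgGal4 at days 0, 3 and 14, and at 89.2 and 95.4, 101 and 95.3 and 69.8 and 95.7 CPM with sgDDX3. The sgDDX3 libraries lay below the control at days 3 and 14, and the lowest of the 12 was sgDDX3 replicate 1 of day 14. PSAT1 RNA rose with sgGal4 by 0.36 ± 0.10 by day 3 (adjusted p = 0.0309), and was lower with sgDDX3 at day 14 by -0.36 ± 0.10 (adjusted p = 0.0174) but not past the threshold at day 3 (-0.17 ± 0.10, adjusted p = 0.296). Without sgDDX3 replicate 1 the day 14 difference was -0.16 and no longer passed (adjusted p = 0.278), and without replicate 2 it was -0.61. Its footprints were at 121 and 118, 159 and 152 and 154 and 161 CPM with sgGal4 and at 132 and 126, 164 and 150.1 and 105 and 153 CPM with sgDDX3. At day 3 the sgDDX3 footprints overlapped those of the control, and at day 14 both libraries lay below without passing (-0.29 ± 0.13, adjusted p = 0.28). That value was -0.05 without replicate 1 and -0.58 without replicate 2, where it passed (adjusted p = 0.0166).

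PSPH (ENSG00000146733.13, chr7:56011064-56051444), the phosphatase that completes serine synthesis, had RNA at 46.6 and 42.3, 62.1 and 67.3 and 58.7 and 61.8 CPM with sgGal4 at days 0, 3 and 14. The sgDDX3 libraries gave 53.0 and 47.7, 58.1 and 61.4 and 43.7 and 48.8 CPM. The sgDDX3 libraries of day 14 overlapped those of day 0, while those of sgGal4 stayed above their day 0 level. PSPH RNA rose with sgGal4 by 0.53 ± 0.09 by day 3 (adjusted p = 0.000925), fell with sgDDX3 from day 3 to day 14 by -0.36 ± 0.09 (adjusted p = 0.0206), and was lower with sgDDX3 at day 14 by -0.39 ± 0.09 (adjusted p = 0.00544). Leaving out sgDDX3 replicate 1 of day 14 gave -0.28 for the fall (adjusted p = 0.189) and -0.31 between the guides (adjusted p = 0.0501), and leaving out replicate 2 gave -0.44 and -0.47. Its footprints were at 76.3 and 71.8, 123 and 108 and 109.9 and 111 CPM with sgGal4 and at 94.7 and 87.9, 118 and 98.1 and 73.6 and 101 CPM with sgDDX3. The 2 guides overlapped at day 3, and at day 14 the sgDDX3 libraries lay below without passing (-0.35 ± 0.13, adjusted p = 0.189; -0.14 without replicate 1, and -0.59 with an adjusted p of 0.0452 without replicate 2). With sgGal4 PSPH footprints rose by 0.64 ± 0.13 by day 3 (adjusted p = 0.0367).

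SHMT2 (ENSG00000182199.10, chr12:57229711-57234935), the mitochondrial serine hydroxymethyltransferase, had RNA at 266 and 260.2 CPM at day 0, 396 and 345 at day 3 and 404 and 398 at day 14 with sgGal4. Under sgDDX3 the values were 290.0 and 273, 274 and 259 and 228 and 277 CPM. All 6 sgDDX3 libraries stayed within 228 to 290.0 CPM, while the sgGal4 libraries of days 3 and 14 reached 345 to 404 CPM. SHMT2 rose with sgGal4 by 0.50 ± 0.08 by day 3 (adjusted p = 0.00117) and 0.61 ± 0.08 by day 14 (adjusted p = 7.08e-05). With sgDDX3 the changes from day 0 were -0.08 ± 0.08 and -0.16 ± 0.08 and did not pass. Its guide difference was -0.47 ± 0.08 at day 3 (adjusted p = 0.000505) and -0.67 ± 0.08 at day 14 (adjusted p = 1.7e-05), a difference of -37.0%. At day 14 it was -0.54 without sgDDX3 replicate 1 and -0.81 without replicate 2. SHMT2 footprints were at 323 and 305, 492 and 440.0 and 464 and 434 CPM with sgGal4 and at 352 and 340.4, 392 and 352 and 302 and 387 CPM with sgDDX3. The guides did not overlap at any day, sgDDX3 being above at day 0 and below at days 3 and 14, but no guide difference of the footprints passed (day 14: -0.38 ± 0.12, adjusted p = 0.0901). The day 14 footprint difference was -0.22 without replicate 1 and -0.57 without replicate 2, where it passed (adjusted p = 0.0286).

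MTHFD2 (ENSG00000065911.11, chr2:74198615-74217565), the mitochondrial methylenetetrahydrofolate dehydrogenase and cyclohydrolase, was the 1 enzyme gene of the 10 whose fall in RNA from day 0 to day 14 with sgDDX3 passed. Its RNA was at 370.5 and 374, 518 and 459.6 and 441 and 441 CPM with sgGal4 at days 0, 3 and 14. With sgDDX3 it was at 393 and 397, 399 and 322 and 229 and 334 CPM. Both sgDDX3 libraries of day 14 lay below both of day 0. The fall from day 0 to day 14 was -0.49 ± 0.12 (adjusted p = 0.00366). Without sgDDX3 replicate 1 of day 14 it was -0.23 and no longer passed (adjusted p = 0.0681), and without replicate 2 it was -0.79. Against sgGal4 the difference was -0.44 ± 0.12 at day 3 (adjusted p = 0.014) and -0.65 ± 0.12 at day 14 (adjusted p = 0.000659), a difference of -36.1%. The latter was -0.40 without sgDDX3 replicate 1 and -0.94 without replicate 2. MTHFD2 footprints were at 282 and 308, 428 and 384 and 363 and 366 CPM with sgGal4 and at 288 and 300.1, 349 and 290.1 and 229.9 and 277 CPM with sgDDX3. At day 14 this was the 1 enzyme gene of the 10 whose footprints passed between the guides (-0.52 ± 0.11, adjusted p = 0.024). This was -0.40 without sgDDX3 replicate 1, which did not pass (adjusted p = 0.217), and -0.66 without replicate 2.

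MTHFD1L (ENSG00000120254.15, chr6:150865702-151101887), the mitochondrial formyltetrahydrofolate synthetase that releases formate, rose in RNA with both guides. With sgGal4 its RNA was at 78.6 and 83.8, 114 and 115 and 112 and 112 CPM at days 0, 3 and 14, and with sgDDX3 at 88.9 and 86.0, 119 and 116 and 92.2 and 111 CPM. By day 3 the rise was 0.50 ± 0.08 with sgGal4 (adjusted p = 0.000921) and 0.42 ± 0.08 with sgDDX3 (adjusted p = 0.000635), and the guides differed by 0.04 ± 0.08 at day 3 and -0.14 ± 0.08 at day 14, neither of which passed (adjusted p = 0.825 and 0.274). Its footprints were at 53.6 and 52.4, 76.1 and 65.9 and 84.4 and 86.4 CPM with sgGal4 and at 61.2 and 59.6, 65.5 and 67.6 and 67.6 and 88.7 CPM with sgDDX3. With sgGal4 they rose by 0.69 ± 0.12 by day 14 (adjusted p = 0.00965), and the guides overlapped at days 3 and 14.

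PYCR1 (ENSG00000183010.16, chr17:81932391-81937300), which makes proline by reducing pyrroline-5-carboxylate, had RNA at 162 and 174, 208 and 208 and 203 and 207 CPM with sgGal4 at days 0, 3 and 14. With sgDDX3 the level was 183 and 169, 184 and 179 and 156 and 155 CPM. Here the sgDDX3 libraries of day 14 differed little from each other, and both were the lowest of the 12. They also lay below both day 0 libraries of sgDDX3, a difference that did not pass. PYCR1 rose with sgGal4 by 0.31 ± 0.07 by day 3 (adjusted p = 0.00936) and was lower with sgDDX3 at day 14 by -0.40 ± 0.07 (adjusted p = 0.000457), a difference of -24.2%, and by -0.41 or -0.39 with sgDDX3 replicate 1 or 2 left out. Its footprints were at 307 and 272, 354 and 317 and 329.8 and 295 CPM with sgGal4 and at 292 and 274, 338 and 253 and 219.9 and 264 CPM with sgDDX3. They were lower than the control in both sgDDX3 libraries at day 14, by -0.37 ± 0.13, and did not pass (adjusted p = 0.164; -0.25 without replicate 1 and -0.51 without replicate 2).

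ALDH18A1 (ENSG00000059573.8, chr10:95605941-95656711), which makes pyrroline-5-carboxylate from glutamate, did not pass in any comparison of either assay. Its RNA was at 36.1 and 33.9, 36.8 and 41.8 and 36.3 and 38.4 CPM with sgGal4 at days 0, 3 and 14, and at 37.2 and 39.7, 35.1 and 43.0 and 44.7 and 41.1 CPM with sgDDX3. At day 14 both sgDDX3 libraries lay above both of sgGal4, by 0.19 ± 0.10 (adjusted p = 0.228), the opposite direction to the other 9. Its footprints were at 51.3 and 52.1, 46.3 and 48.0 and 46.9 and 48.3 CPM with sgGal4 and at 45.2 and 51.3, 46.2 and 56.9 and 57.8 and 47.0 CPM with sgDDX3. The guides overlapped at days 3 and 14.

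ASNS (ENSG00000070669.16, chr7:97851677-97928441), asparagine synthetase, was the gene whose RNA differed most between the sgDDX3 libraries of day 14. With sgGal4 its RNA was at 96.0 and 94.5 CPM at day 0, 193 and 169 at day 3 and 168 and 197 at day 14. With sgDDX3 it was at 112 and 119, 136 and 122 and 84.2 and 153 CPM. The day 14 libraries of sgDDX3 lay on either side of their day 0 level, and both lay below the control. ASNS rose with sgGal4 by 0.93 ± 0.15 by day 3 (adjusted p = 0.00111), 1.91-fold, and by 0.17 ± 0.15 with sgDDX3, which did not pass (adjusted p = 0.5). The guides differed by -0.48 ± 0.15 at day 3 (adjusted p = 0.0374) and -0.63 ± 0.16 at day 14 (adjusted p = 0.00888). The day 14 difference was -0.26 without sgDDX3 replicate 1, which did not pass (adjusted p = 0.077), and -1.12 without replicate 2, and it did not pass by DESeq2. ASNS footprints were at 114 and 133, 267 and 252 and 259 and 333 CPM with sgGal4 and at 162 and 169.7, 235 and 233 and 169.7 and 256 CPM with sgDDX3. They rose with sgGal4 by 1.07 ± 0.16 by day 3 (adjusted p = 0.00884) and 1.26 ± 0.16 by day 14 (adjusted p = 0.0017), and the guide difference of -0.48 ± 0.16 at day 14 did not pass (adjusted p = 0.131). It was -0.21 without replicate 1 and -0.80 without replicate 2, where it passed (adjusted p = 0.0156).

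PCK2 (ENSG00000100889.11, chr14:24094171-24104125), the mitochondrial phosphoenolpyruvate carboxykinase, had a guide difference in RNA at days 3 and 14. With sgGal4 its RNA was at 174 and 175, 293 and 262 and 311 and 309 CPM at days 0, 3 and 14, and with sgDDX3 at 199 and 188, 216 and 202 and 159 and 210.3 CPM. The sgDDX3 libraries stayed between 159 and 216 CPM and lay below the control at days 3 and 14. PCK2 rose with sgGal4 by 0.67 ± 0.09 by day 3 (adjusted p = 0.000267) and 0.83 ± 0.09 by day 14 (adjusted p = 7.79e-06). It was lower with sgDDX3 by -0.41 ± 0.09 at day 3 (adjusted p = 0.00443) and -0.75 ± 0.09 at day 14 (adjusted p = 1.72e-05), a difference of -40.5%. Leaving out sgDDX3 replicate 1 of day 14 gave -0.56, and leaving out replicate 2 gave -0.96. PCK2 footprints were at 232 and 223, 419 and 357 and 408 and 387 CPM with sgGal4 and at 268 and 264, 347 and 283 and 211 and 324 CPM with sgDDX3. Both sgDDX3 libraries were below the control at days 3 and 14, and neither difference passed (day 14: -0.57 ± 0.16, adjusted p = 0.0689). The day 14 footprint value was -0.30 without replicate 1 and -0.91 without replicate 2, where it passed (adjusted p = 0.00491).

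**Figure D2:**
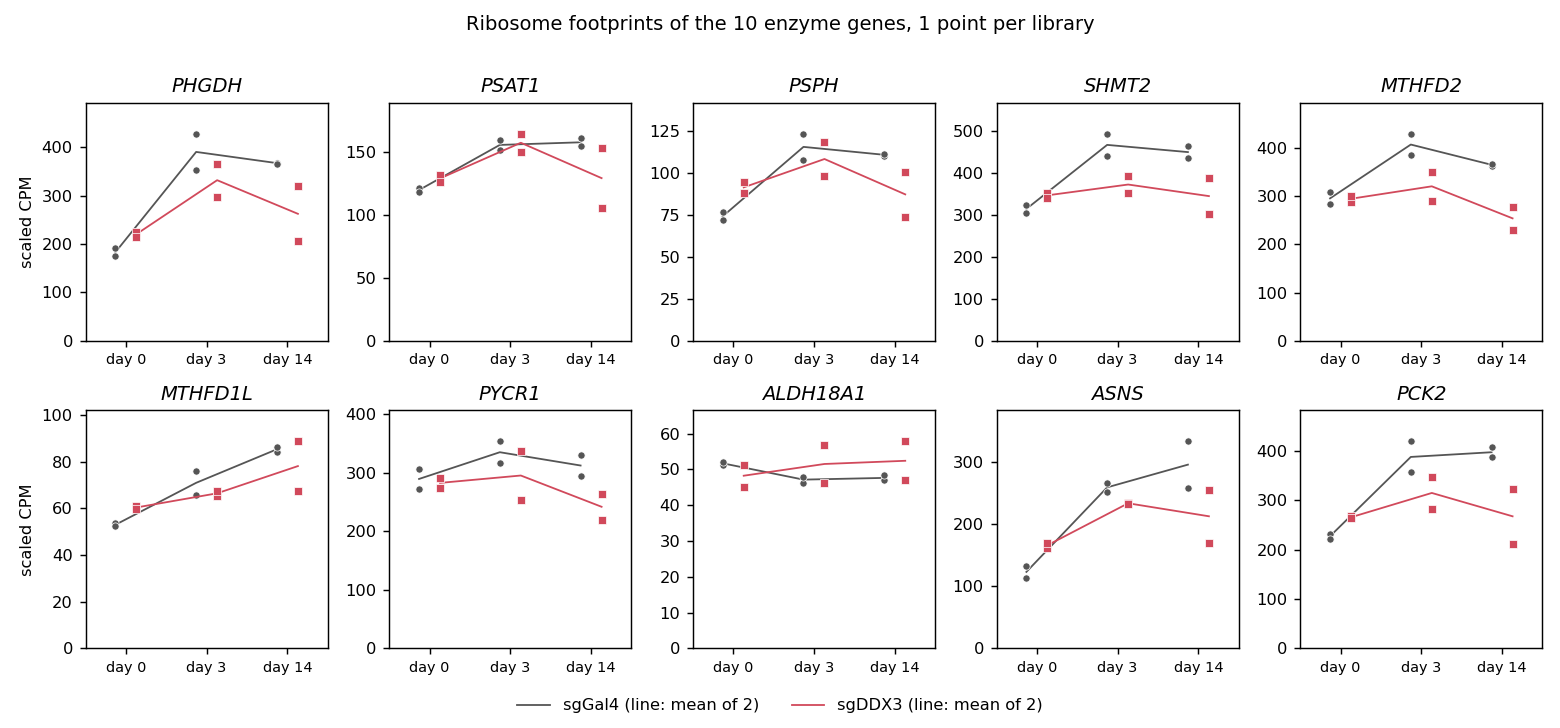
Ribosome footprints of the 10 enzyme genes in scaled CPM (y axis, from 0) at days 0, 3 and 14 (x axis, not to scale), 1 point per library and lines through the mean of 2, grey for sgGal4 and red for sgDDX3. Both sgDDX3 points of day 14 lie below both sgGal4 points for 8 of the 10 genes (20.6% of all genes tested), and overlap them for MTHFD1L and ALDH18A1.

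With the control guide, 9 of the 10 mRNAs rose from day 0 to day 3 and none fell, where 3.41% of all genes rose and 2.27% fell (edgeR). By day 14, 8 of the 10 were above day 0, where 7.7% of all genes rose. MTHFD2 and ALDH18A1 did not pass there. Between days 3 and 14 no enzyme mRNA passed with sgGal4, none had an unadjusted p under 0.05 and none passed by DESeq2, and 0.755% of all genes passed in either direction. PHGDH, PSPH and PCK2 passed at day 3 with any 1 library of the comparison left out. The day 3 calls of ASNS and SHMT2 were lost without sgGal4 replicate 1 of day 3, that of MTHFD1L without replicate 1 of day 0, and those of PSAT1, MTHFD2 and PYCR1 without any 1 of the 4 libraries. The count of 9 became 4 without replicate 1 of day 3, 5 without replicate 1 of day 0 and 6 otherwise, while the count over all genes fell from 1039 to between 96 and 664. Of the 8 calls of day 14, 6 or 7 were kept with 1 library left out, the losses being PSAT1 without any 1 of the 4 and PYCR1 without replicate 1 of day 0 or replicate 2 of day 14.

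In footprints the control cells gave fewer calls. From day 0 to day 3 the footprints of PHGDH, PSPH, SHMT2, ASNS and PCK2 rose (5 of 10), where 0.703% of all genes rose. By day 14 these 5 and MTHFD1L were above day 0, where 1.54% of all genes rose. From day 3 to day 14 none passed (edgeR, with 1 at an unadjusted p under 0.05 and 0 by DESeq2), and 0.566% of all genes did. These calls depended on every library: without any 1 of the 4, the count at day 3 fell from 5 to 0 and that over all genes from 250 to between 10 and 81. The median log2 change of the 10 genes was 0.52 with all 4 libraries and 0.45 to 0.59 with 1 left out. At day 14 only ASNS kept its call with any 1 library left out. PHGDH and MTHFD1L lost theirs without either day 0 library, and PSPH, SHMT2 and PCK2 without any 1 of the 4, so that 1 call was left without either day 0 library and 3 without either day 14 library.

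**Figure D3:**
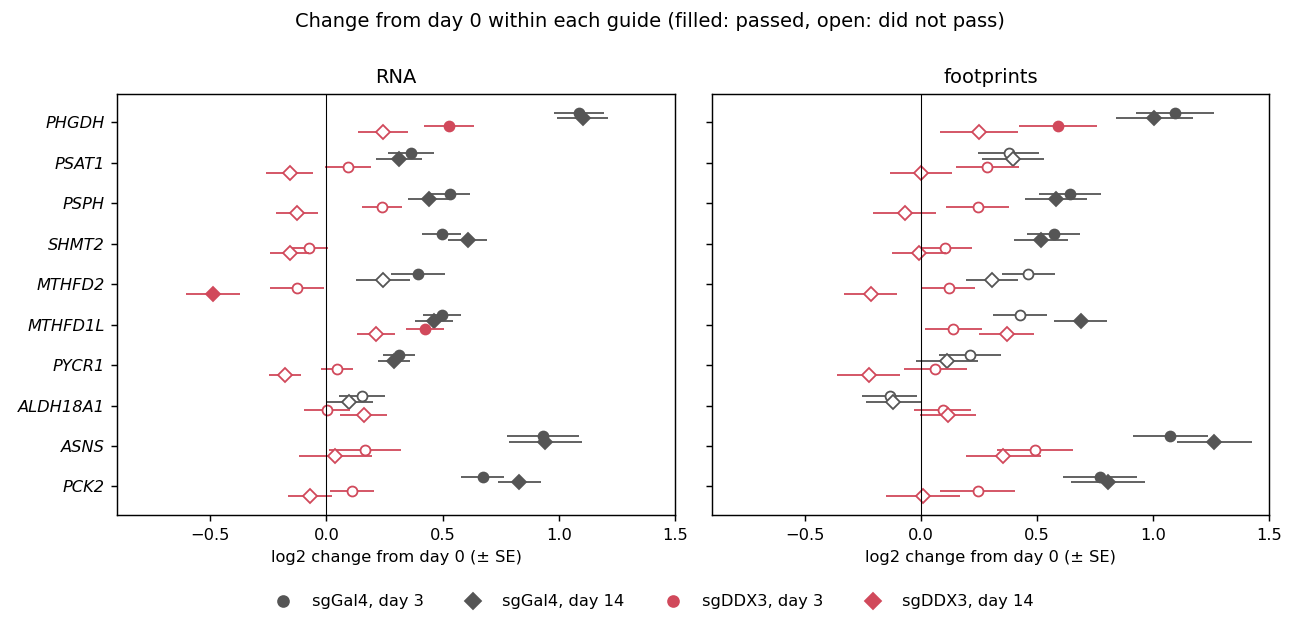
Log2 change from day 0 (x axis) of each enzyme gene in RNA (left) and footprints (right), with SE as bars, circles for day 3, diamonds for day 14, grey for sgGal4 and red for sgDDX3, filled where the adjusted p was under 0.05. In RNA the sgGal4 points of PHGDH lie at 1.09 and 1.10 and those of sgDDX3 at 0.53 and 0.24, and MTHFD2 with sgDDX3 at day 14 is the filled point below 0.

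With sgDDX3, 2 of the 10 mRNAs rose from day 0 to day 3, PHGDH and MTHFD1L, where 11.1% of all genes rose, and both passed with any 1 library left out. By day 14 MTHFD2 had fallen, 1 of 10, where 12.8% of all genes fell. From day 3 to day 14 PSPH fell, 1 of 10, where 2.47% of all genes did. Both counts at day 14 turned on the libraries that differ. The MTHFD2 change from day 0 was -0.23 without sgDDX3 replicate 1 of day 14 and -0.79 without replicate 2. The PSPH change from day 3 was -0.28 and -0.44. PHGDH, MTHFD1L and ASNS did not pass from day 0 to day 14 with all libraries. Their changes were 0.48, 0.34 and 0.42 without replicate 1. Without replicate 2 these were -0.03, 0.08 and -0.46. The call of PSPH was also lost without either day 3 library. In footprints only PHGDH rose by day 3 (1 of 10, where 3.73% of all genes rose), and this call was lost without either day 0 library or without replicate 1 of day 3. None passed by day 14 against day 0 (edgeR, 2 at an unadjusted p under 0.05, 0 by DESeq2, where 7.78% of all genes passed in either direction). None passed from day 3 to day 14 (edgeR, 2 at an unadjusted p under 0.05, 0 by DESeq2), where 1.82% of all genes did. Footprint changes of ASNS and MTHFD1L from day 0 were 0.63 and 0.56 without replicate 1 of day 14. Without replicate 2 they were 0.03 and 0.16. Those of PHGDH and PSAT1 from day 3 were -0.05 and -0.03 without replicate 1, and -0.69 and -0.58 without replicate 2.

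Between the guides, both sgDDX3 RNA libraries lay above both control libraries at day 0 for 9 of the 10 genes, where this held for 19.2% of all genes tested, and below for none. At day 3 they lay below for 8 of the 10 (27.4% of all genes) and above for 1 (MTHFD1L, 26.3%). At day 14 they lay below for 9 (25.6%) and above for 1 (ALDH18A1, 26.3%). Most of the 5 calls of day 3 depended on single libraries. That of SHMT2 was kept with any 1 left out, that of PCK2 was lost without sgGal4 replicate 1, those of PHGDH and MTHFD2 without sgDDX3 replicate 2 or sgGal4 replicate 1, and that of ASNS without any 1 of the 4. The count was 2 without sgDDX3 replicate 2, 1 without sgGal4 replicate 1, and 3 by DESeq2. Of the 8 calls of day 14, those of PHGDH, SHMT2, MTHFD2, PYCR1 and PCK2 were kept with any 1 library left out. Leaving out sgDDX3 replicate 1 or sgGal4 replicate 2 ended those of ASNS and PSPH, and that of PSAT1 was lost without either of these or sgGal4 replicate 1. The count was 5 without sgDDX3 replicate 1, 5 without sgGal4 replicate 2 and 9 without sgDDX3 replicate 2, and the median log2 difference of -0.51 became -0.36 when sgDDX3 replicate 1 was left out and -0.71 when replicate 2 was.

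In footprints the direction was like that of RNA and few differences passed. At day 0 none passed (edgeR, 2 at an unadjusted p under 0.05, 0 by DESeq2), where 0.0101% of all genes did, and 7 of the 10 had both sgDDX3 libraries above the control against 18.0% of all genes. At day 3 none passed (edgeR, 2 at an unadjusted p under 0.05, 0 by DESeq2), where 3.81% of all genes did, and 4 lay wholly below the control (22.3% of all genes). Without sgDDX3 replicate 1 of day 3, 1 passed. At day 14 MTHFD2 passed as lower, 1 of 10, where 1.29% of all genes passed as lower. At an unadjusted p under 0.05 there were 8, and the share of all genes at that threshold is not given here. Wholly below the control lay 8 (20.6% of all genes). The day 14 count was 0 when either sgGal4 library or sgDDX3 replicate 1 was left out, 7 without sgDDX3 replicate 2, and 3 by DESeq2. The median log2 difference was 0.16 at day 0, -0.17 at day 3 and -0.38 at day 14, beside 0.00, 0.02 and 0.00 over all genes.

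**Figure D4:**
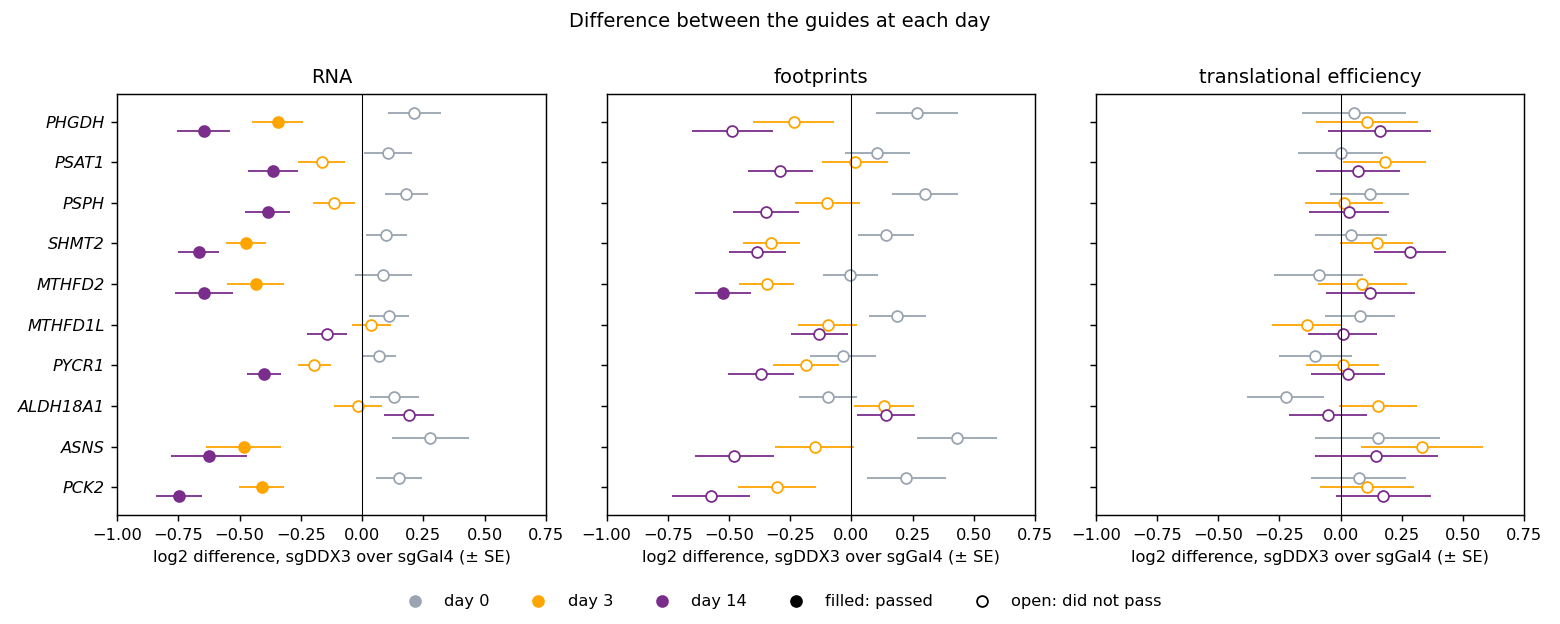
Log2 difference of sgDDX3 over sgGal4 (x axis) for each enzyme gene in RNA (left), footprints (middle) and translational efficiency (right), with SE as bars, grey for day 0, orange for day 3 and purple for day 14, filled where the adjusted p was under 0.05. In RNA 5 points of day 3 and 8 of day 14 are filled, in footprints 1, and in translational efficiency none.

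Translational efficiency, which sets a gene's footprints against its RNA, passed for none of the 10 genes at any day. Of all genes tested, 0.00673% passed in either direction at day 0, 5.14% at day 3 and 1.75% at day 14, and for the enzyme genes the number at an unadjusted p under 0.05 and the number by DESeq2 were 0 at each day (edgeR). The median of the 10 was 0.05, 0.11 and 0.10 on the log2 scale at days 0, 3 and 14, beside 0.00, 0.05 and 0.02 over all genes. At day 14 the values ranged from -0.05 ± 0.16 for ALDH18A1 to 0.28 ± 0.15 for SHMT2. With standard errors of 0.14 to 0.25, differences of the size of these values were not detectable at this depth and number of libraries. The ratio of mean footprint to mean RNA CPM, with no SD since the libraries of the assays are not known to pair, ran over the 6 groups of guide and day from 1.38 to 1.60 for PHGDH, 1.12 to 1.39 for SHMT2 and 0.57 to 0.77 for MTHFD1L. For ASNS it ran from 1.29 to 1.81.

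The change of the guide difference over time was tested directly. From day 0 to day 3 it was lower for PHGDH, SHMT2 and PCK2 in RNA (3 of 10, where 1.32% of all genes passed as lower). From day 0 to day 14 it was lower for PHGDH, PSPH, SHMT2, MTHFD2, PYCR1, ASNS and PCK2 (7 of 10, where 1.8% of all genes passed as lower). It was -0.90 ± 0.22 for ASNS (adjusted p = 0.0197) and -0.90 ± 0.13 for PCK2 (adjusted p = 0.000465). Without sgDDX3 replicate 1 of day 14 these were -0.53 and -0.71, and without replicate 2 they were -1.40 and -1.11. The ASNS call was lost under 6 of 15 alternatives and that of PCK2 under 0. Since the guide differences of day 0, none of which passed, had the other sign, these values are larger than the differences at day 14. From day 3 to day 14 none passed in RNA (edgeR, 3 at an unadjusted p under 0.05, 0 by DESeq2), where 0.164% of all genes passed in either direction, and 5 passed without sgDDX3 replicate 2 of day 14. In footprints none passed from day 0 to day 3 (3 unadjusted, 0 by DESeq2, 0.121% of all genes), from day 0 to day 14 (6 unadjusted, 1 by DESeq2, 0.106%) or from day 3 to day 14 (0 unadjusted, 0 by DESeq2, 0.126%), all by edgeR with unadjusted p under 0.05. Without sgDDX3 replicate 2 of day 14, 3 footprint changes from day 0 passed.

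The calls on the change from day 0 leaned on the day 0 libraries. For days 0 to 14 in RNA, those of PHGDH, SHMT2 and PCK2 were kept with any 1 library left out. The count of 7 was 3 without sgDDX3 replicate 1 of day 0 or sgGal4 replicate 2 of day 14, 4 without either sgGal4 library of day 0, and 9 without sgDDX3 replicate 2 of day 14. For days 0 to 3 the count of 3 was 0 without sgDDX3 replicate 1 of day 0, sgGal4 replicate 2 of day 0 or sgGal4 replicate 1 of day 3, and 1 without sgDDX3 replicate 2 of day 0, sgDDX3 replicate 2 of day 3 or sgGal4 replicate 1 of day 0.

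The 10 genes were then averaged within each library, as log2 CPM centred on each gene's mean over the 12 libraries of an assay. With sgGal4 the mean RNA profile was at -0.26 and -0.27 at day 0, 0.31 and 0.25 at day 3 and 0.25 and 0.29 at day 14. In sgDDX3 libraries it was at -0.11 and -0.14, 0.05 and -0.01, and -0.35 and -0.02. The sgDDX3 libraries of day 14 were farther apart than the replicates of any other group, and replicate 1 was the lowest of the 12. In footprints sgGal4 was at -0.29 and -0.32, 0.32 and 0.17, and 0.24 and 0.26, and sgDDX3 at -0.15 and -0.16, 0.15 and 0.01, and -0.30 and 0.08. The same sgDDX3 replicate number was the lower at day 14 in both assays.

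**Figure D5:**
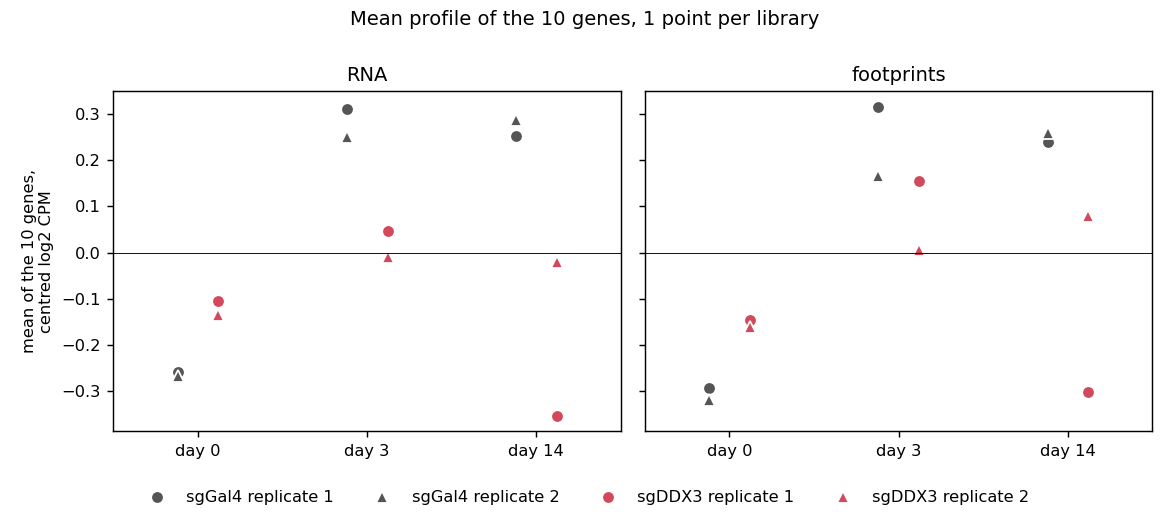
Mean centred log2 CPM of the 10 genes (y axis) in each library by day (x axis), RNA on the left and footprints on the right, circles for replicate 1, triangles for replicate 2, grey for sgGal4 and red for sgDDX3. The sgGal4 libraries of days 3 and 14 are the highest in RNA (0.25 to 0.31), and sgDDX3 replicate 1 of day 14 is the lowest (-0.35).

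Over the libraries 9 of the genes varied with one another and ALDH18A1 did not. Against the mean of the other 9, the correlation over the 12 RNA libraries was 0.96 for PCK2 and ASNS, 0.93 for PHGDH and 0.70 for MTHFD2, the lowest of those 9, and -0.13 for ALDH18A1. Over the 12 footprint libraries it was 0.98 for PCK2 and PHGDH, 0.59 for PYCR1 and -0.63 for ALDH18A1. These are descriptions over libraries that share their groups. Among other genes of at least 10 CPM, those most like the mean RNA profile were SARS1, which charges serine tRNA (r = 0.98), YARS1 (0.97), HAX1, PTH2R, CALCOCO2, TF, TRIB3 and INHBE (0.96 to 0.97, n = 12 libraries). Those most like the mean footprint profile were SARS1 (0.97), TF, the mitochondrial folate enzyme ALDH1L2, the mitochondrial protease LONP1, the neutral amino acid transporter SLC1A4, PRSS8, the glycine transporter SLC6A9 and CARS1 (0.95 to 0.97, n = 12).

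Other genes of the same pathways were read from the same fits. Of 23 other genes of serine, glycine and folate metabolism, 22 were tested in RNA. With sgDDX3 at day 14, 1 was higher and 6 lower (median log2 difference -0.20), where 8.44% and 6.18% of all genes were. The smallest p-values were those of CTH, which makes cysteine (-0.67 ± 0.13, adjusted p = 0.00154), the methionine synthase MTR (0.32 ± 0.07), cytosolic SHMT1 (-0.40 ± 0.10) and AHCY (-0.26 ± 0.07). At day 3 none was higher and 6 were lower (median -0.10), where 7.68% and 6.39% of all genes were. Among the 6 were the thymidylate synthase TYMS (-0.55 ± 0.09, adjusted p = 0.000258) and cytosolic MTHFD1 (-0.42 ± 0.09). TYMS and MTHFD1 belong to the folate cycle of the cytosol. With sgGal4, 2 of the 22 rose by day 3 (ALDH1L2 0.78 and CBS 0.28) and 1 fell (SFXN1 -0.48), where 3.41% of all genes rose and 2.27% fell. The list's median was -0.06, beside 0.50 for the 10 enzyme genes and 0.01 for all genes tested.

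Of 15 other genes of proline, glutamate and aspartate metabolism, 13 were tested in RNA. With sgDDX3 at day 14, 1 was higher and 4 lower (median -0.04), where 8.44% and 6.18% of all genes were. Argininosuccinate synthetase ASS1 had the largest difference (-1.30 ± 0.20, adjusted p = 0.000119), and the aminotransferases GPT2 (-0.51 ± 0.09) and GOT1 (-0.53 ± 0.10) were also lower. At day 3 GLUD1 was higher (0.24 ± 0.07) and GOT1 lower (-0.34 ± 0.09), 1 in each direction, with a median of 0.06. At that day 7.68% of all genes were higher and 6.39% lower. With sgGal4 GPT2 (0.59), ASS1 (0.90) and GOT1 (0.42) rose by day 3 and none of the 13 fell, where 3.41% of all genes rose and 2.27% fell.

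Glycolysis supplies the precursor of serine. Of 17 glycolysis genes, at each of days 3 and 14 none was higher and 1 lower with sgDDX3. Of all genes, 6.39% were lower and 7.68% higher at day 3, and 6.18% and 8.44% at day 14, so 1 of 17 is near the share. The genes were ENO1 at day 3 (-0.32 ± 0.09) and PFKM at day 14 (-0.26 ± 0.09), with list medians of 0.01 and -0.02. With sgGal4 none of the 17 rose by day 3 and 7 fell, among them LDHA (-0.74) and PGK1 (-0.35), where 2.27% of all genes fell. By day 14 with sgGal4, 2 had risen and 3 fallen (median -0.08), where 7.7% of all genes rose and 8.55% fell. With sgDDX3, 1 rose and 7 fell by day 3, where 11.1% of all genes rose and 9.42% fell. ALDH1L2, CBS, SFXN1, LDHA and PGK1 are named here after their values in sgGal4 were seen.

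Of 18 regulators of the ATF4 pathway, 2 were higher and 7 lower with sgDDX3 at day 14 (median -0.21), and 2 higher and 5 lower at day 3 (median -0.10). Over all genes tested 8.44% were higher and 6.18% lower at day 14, and 7.68% and 6.39% at day 3. At day 14 MYC (-0.62 ± 0.07, adjusted p = 6.39e-06), the ATF4 target TRIB3 (-0.98 ± 0.13) and ATF4 itself (-0.41 ± 0.07, adjusted p = 0.000559) were lower, and EIF2AK4, the kinase that senses uncharged tRNA, was higher (0.55 ± 0.08). At day 3 EIF2AK4 (0.71 ± 0.08) was higher and MYC (-0.37 ± 0.07), TRIB3 (-0.62 ± 0.12) and DDIT3 (-0.50 ± 0.11) were lower. ATF4 RNA was at 664 and 680.2, 758 and 773 and 760.5 and 759.8 CPM with sgGal4 and at 673 and 648, 667 and 630.1 and 520.4 and 624 CPM with sgDDX3 at days 0, 3 and 14. The 2 sgDDX3 libraries of day 14 were the lowest of the 12 in ATF4 RNA, and replicate 1 lay below replicate 2. ATF4 footprints were at 418 and 391, 431 and 404 and 445 and 410.2 CPM with sgGal4 and at 463 and 456, 384 and 389 and 345 and 413 CPM with sgDDX3. Which parts of the transcript these counts cover is not given in the sources used here. At day 0 both sgDDX3 footprint libraries lay above both of the control for ATF4, where this held for 18.0% of all genes. At day 3 both lay below (22.3% of all genes), and at day 14 the guides overlapped.

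Counts of several of these genes can be shared with other genes. Pseudogenes named after ASNS, MTHFD2, PSAT1 and PSPH were in the tables. They are counted apart from these genes, and their sums are given relative to the gene's own count. In RNA the sum was 7.62% as large as the count of ASNS (4 pseudogenes, nearly all ASNSP1), 9.34% as large as that of PSPH (PSPHP1), 0.814% for MTHFD2 (7) and 0.614% for PSAT1 (4). In footprints these ratios were 7.90%, 6.27%, 17.7% and 22.4%, with PSAT1P3 alone at 13.9% of the size of the PSAT1 count and MTHFD2P7 at 9.80% of that of MTHFD2. Adding the pseudogene counts to their gene lost none of the 57 calls on the enzyme genes. By position, SHMT2 overlapped COXFA4L2, MTHFD2 overlapped SLC4A5, PCK2 overlapped NRL, and ASNS overlapped the lncRNA CZ1P-ASNS. MTHFD1L overlapped the lncRNA LOC124901432 and 3 pseudogenes, and ASNS also 2. How reads on 2 genes were counted is not given in the sources used here.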

How the data were processed

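Cytosolic RNA and ribosome footprints of K562 cells were sequenced. The deposited tables, 1 per assay, hold raw counts of reads per gene. The build GRCh38 and the tools STAR 2.7.5a, Bowtie2 2.4.1, cutadapt 3.4 and DESeq2 are listed, with no role, per the submitters' processing notes. Values of overlapping genes and pseudogenes are uncertain, with the counting tool, annotation and strand setting not given in the sources used here. Of 58037 genes, 45 pseudoautosomal copies listed on Y were left out, and 41445 (71.5%) of the rest had a symbol.

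Tests were edgeR 4.0.16 quasi-likelihood F-tests (R 4.3.3, limma 3.58.1), all 12 libraries of an assay in a fit, with TMM scaling, filterByExpr (minimum count 10) and Benjamini-Hochberg adjustment over all genes tested. A gene passed at 0.05. Counts at an unadjusted p under 0.05 stand without the share of all genes at that threshold, and the shares beside them are for the adjusted p. Translational efficiency was the interaction of guide and assay over 24 libraries. The coefficient of variation was 6.13% in RNA, 9.99% in footprints and 7.08% jointly. The SE after ± was the absolute log2 difference divided by the square root of F. A count of 0 allows 3 counts, 0.207 CPM in the median RNA library and 0.317 in the median footprint library, counting error only. Alternatives were DESeq2 1.42.0, RLE or total-count scaling, no filter, only the compared groups, a replicate block, each library left out and, chosen after seeing the data, pseudogene counts added. The comparisons of the guide difference with day 0 were also added after seeing the data. The fits were tested on simulated data. Promoters come from RefSeq. No 2 libraries were identical. Python 3.11.15, pandas 2.3.3 and matplotlib 3.10.9 read sequences and drew figures.

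The members, lists and tests were chosen with earlier results of these data known. All 10 enzyme genes are named, with DDX3X, up to 4 genes of each list with the smallest p between the guides at day 3 or 14, pseudogenes of the 10, and the 8 genes of at least 10 CPM most correlated with their mean profile in each assay. Some genes of these lists that the rule would name are not reported here, and the lists' counts and medians include them.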

Additional observations from a re-analysis of the deposited data

Results flagged for a closer look

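For 7 of the 10 enzyme genes the difference between the guides in RNA changed between days, by the interaction of guide and day (edgeR, log2 ± SE, 2 libraries in each of the 4 groups). From day 0 to day 3 the change was -0.56 ± 0.15 for PHGDH (adjusted p = 0.0416), -0.57 ± 0.12 for SHMT2 (adjusted p = 0.00747) and -0.56 ± 0.13 for PCK2 (adjusted p = 0.0195). From day 0 to day 14 it was -0.86 ± 0.15 for PHGDH (adjusted p = 0.00195), -0.77 ± 0.12 for SHMT2 (adjusted p = 0.000643), -0.90 ± 0.13 for PCK2 (adjusted p = 0.000465) and -0.73 ± 0.16 for MTHFD2 (adjusted p = 0.012). Over the same days it was -0.57 ± 0.13 for PSPH (adjusted p = 0.0112), -0.90 ± 0.22 for ASNS (adjusted p = 0.0197) and -0.47 ± 0.10 for PYCR1 (adjusted p = 0.00681). In each of the 10 results both sgDDX3 libraries of the later day lay below both control libraries. This held for 27.4% of all genes tested at day 3 and 25.6% at day 14. The 10 were picked by a test on the same libraries, so their position adds no support. The 7 changes from day 0 to day 14 kept their sign with either sgDDX3 library of day 14 left out, which leaves 1 library in that group. Without replicate 1 they were -0.63 for PHGDH, -0.63 for SHMT2, -0.71 for PCK2, -0.48 for MTHFD2, -0.49 for PSPH, -0.53 for ASNS and -0.48 for PYCR1. Without replicate 2 they were -1.13, -0.91, -1.11, -1.03, -0.65, -1.40 and -0.46 in the same order. Of these 10, those of PHGDH, SHMT2 and PCK2 from day 0 to day 14 were kept under every alternative run. These alternatives include fits that leave 1 library in a group, where passing is no measure of stability. With groups of 2 libraries no library could be tested as an outlier of its group.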

How the results depend on the processing

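Of 57 calls on the enzyme genes, 21 were kept under every alternative, 36 were lost under at least 1, and 0 reversed. With all libraries kept, 45 were kept and 12 lost: DESeq2 lost 8, fits of only the compared groups 3, the replicate block 3, and RLE scaling, total-count scaling, no filter and added pseudogene counts 0. Leaving out a library lost 115 calls in 268 fits. A call kept with a library left out is no measure of stability, and the 57 calls come from comparisons that share libraries. Within each assay, replicate numbers showed little pairing of samples. Deviations from group means correlated at -0.13 to 0.06 in RNA and -0.26 to 0.22 in footprints, over 15 pairs of groups each. In footprints 1 pair was over 0.1, and in RNA 0. Whether the same number marks the same culture in both assays was not tested. With the block, the calls lost were MTHFD2 in RNA with sgGal4 at day 3 over day 0 (count of 9 to 8), PHGDH for the change of the guide difference from day 0 to day 3 in RNA (3 to 2), and PHGDH in footprints with sgDDX3 at day 3 over day 0 (another gene passed, so the count stayed at 1).

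With 1 library left out, counts of enzyme genes ranged as follows. The counts over all genes in the same fits are not given beside them, so a change in all genes is not set apart. Between the guides they were 1 to 4 at day 3 and 5 to 9 at day 14 in RNA, and 0 to 1 and 0 to 7 in footprints. For the change of that difference they were 0 to 4 (day 0 to 3), 3 to 9 (day 0 to 14) and 0 to 5 (day 3 to 14) in RNA, and 0 to 3 (day 0 to 14) in footprints. With sgGal4 over day 0 they were 4 to 6 at day 3 and 6 to 7 at day 14 in RNA, and 0 and 1 to 3 in footprints. With sgDDX3 they were 1 to 5 (day 14 over day 0) and 0 to 7 (day 14 over day 3) in RNA, and in footprints 0 to 1 (day 3 over day 0), 0 to 2 (day 14 over day 0) and 0 to 2 (day 14 over day 3).

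Other counts that moved by over 1.5 times, for which the cause was not tested, were these. The counts over all genes in these fits are not given here either. With DESeq2 there were 3 between the guides in RNA at day 3, 3 in footprints at day 14, 1 for the change from day 0 to day 14 in footprints, and 2 for sgDDX3 footprints at day 3 over day 0. Without the filter, footprints gave 1, 3 and 7 between the guides at days 0, 3 and 14, 3 and 5 for the change from day 0 to days 3 and 14, 8 for sgGal4 at day 3, and 2 and 1 for sgDDX3 at days 3 and 14 over day 0. In RNA it gave 5 for the change from day 0 to day 3 and 3 for sgDDX3 at day 14 over day 3. With only the compared groups there were 2 in RNA and 1 in footprints between the guides at day 0, 0 in footprints at day 14, 5 for the change from day 0 to day 3 in RNA, 0 for sgDDX3 RNA at day 14 over day 3, 2 for sgDDX3 footprints at day 3 and 8 for sgGal4 footprints at day 3. Total-count scaling gave 2 between the guides in footprints at day 14 and 2 for sgDDX3 RNA at day 14 over day 0. A count of 0 allows 0.207 CPM in the median RNA library and 0.317 CPM in the median footprint library.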
